A study of Mus musculus with 2 samples.

Results

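Distal calcium transport genes are the genes that carry calcium across the cells of the distal convoluted and connecting tubules, and 9 of them were followed here among the 32285 genes of the count tables. They were taken by symbol: the channels Trpv5 and Trpv6, the calcium-binding proteins Calb1, S100g and Pvalb, the exporters Slc8a1, Atp2b1 and Atp2b4, and the vitamin D receptor Vdr. All 9 symbols were found, each in 1 row. They were measured by spatial transcriptomics (10x Genomics Visium) in 2 sections, each labelled as the obstructed kidney of a C57BL/6 mouse at day 7 after tying off of 1 ureter. The SH045 mouse had received larixyl N-methylcarbamate, which blocks the cation channel TRPC6, and the other mouse only its vehicle. Its dose and the age and sex of the mice are not stated in the labels. A Visium spot is a small area of tissue and may cover cells of more than 1 type.

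In these segments calcium enters from the urine through TRPV5, is ferried through the cytoplasm by calbindins, and leaves on the blood side through the sodium-calcium exchanger and the plasma membrane calcium pumps. Parathyroid hormone and the active form of vitamin D, which acts through the vitamin D receptor, are known to raise this transport. The thiazide-sensitive cotransporter gene Slc12a3 marks the distal convoluted tubule, and was used as a reference marker of that segment. Its own RNA per cell may differ between sections.

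The section from the SH045 mouse (SH045 tissue below) held 790 spots and 22388623 UMIs (distinct captured RNA molecules), and the section labelled Vehicle (Vehicle-labelled tissue) 676 spots and 4327613 UMIs. Median depth per spot was 5.62 times greater in the former, and mitochondrially encoded genes took 4.24% and 10.4% of the UMIs. Havcr1 and Lcn2, tubular injury genes known to be induced by obstruction, stood at 992 and 1233 CPM (UMIs per 1000000 UMIs of the section) in SH045 tissue and at 1.62 and 2.08 CPM in the other. The low values go against the obstruction label of the section labelled Vehicle, and every direction below is drawn from that label. The tissue flag of its positions table marked 1210 spots, of which 570 were among the 676 in its matrix, so whether those positions belong to this matrix is not settled. Blocks, maps and distances from the edge in that section rest on them. The sections had 335 spot barcodes in common, which are slide position codes and not cells. With 1 section from 1 mouse per group there is no replicate check. No p-value is given, intervals are 95% and cover counting error only, and 4 position blocks of similar spot number describe the spread within a section.

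Vitamin D receptors bind pairs of a short hexamer half-site, and Trpv6 and S100g are known vitamin D targets in intestine and kidney. Their upstream windows are shown because these 2 targets lay on opposite sides of the comparison while carrying the same hexamer. RefSeq (GRCm38.p6) held a promoter window for 8 of the 9 genes. Each sequence below is the 250 bases before the annotated start, in the direction of the gene, both on the minus strand. The Trpv6 window is chr6:41636406-41636655 and the S100g window chrX:162964600-162964849. Capitals mark the matches found on either strand. The search was for the half-site AGGTCA with its variants GGTTCA, then GGGTCA, then GGGTGA, and for the TATA box hexamer TATAAA.
Trpv6: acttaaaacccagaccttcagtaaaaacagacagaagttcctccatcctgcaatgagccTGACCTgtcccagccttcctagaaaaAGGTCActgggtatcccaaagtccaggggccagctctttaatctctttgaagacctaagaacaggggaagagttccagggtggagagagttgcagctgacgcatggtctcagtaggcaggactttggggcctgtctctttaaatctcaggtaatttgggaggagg
S100g: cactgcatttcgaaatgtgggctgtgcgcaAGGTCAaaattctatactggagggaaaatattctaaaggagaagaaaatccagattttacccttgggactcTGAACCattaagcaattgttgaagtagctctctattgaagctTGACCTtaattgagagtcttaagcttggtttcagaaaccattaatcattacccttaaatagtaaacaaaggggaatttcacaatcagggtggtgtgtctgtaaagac
In the Trpv6 window AGGTCA lay 165 to 160 bases before the start on the gene's strand and 191 to 186 bases before it on the other strand. In the S100g window it lay 220 to 215 bases before the start on the gene's strand and 107 to 102 on the other, with GGTTCA at 149 to 144 on the other strand. No matches overlapped. Of all 32851 windows of this length, 14.0% held AGGTCA, 8.85% GGTTCA, 11.6% GGGTCA, 13.8% GGGTGA and 12.4% TATAAA, and 39.6% held at least 1 of the 4 half-sites. A match of letters is a description of the window and not a binding site.

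The calcium transport genes did not move together between the sections. Both entry channels and the pump gene Atp2b1 were higher in SH045 tissue. All 3 calcium-binding protein genes, the exchanger Slc8a1 and Vdr were lower there, and Atp2b4 stayed within 1.5-fold. All 9 reached 10 CPM in at least 1 section, so 3 were higher, 5 lower and 1 within 1.5-fold. Of the 10463 genes with 10 CPM in either section, 53.2% were higher and 12.0% lower by the same rule, so most genes were higher in SH045 tissue. The median log2 ratio (SH045 over Vehicle, of CPM + 1, which understates ratios of low genes) was -1.56 over the 9 members and 0.63 over all measured genes.

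**Figure D1:**
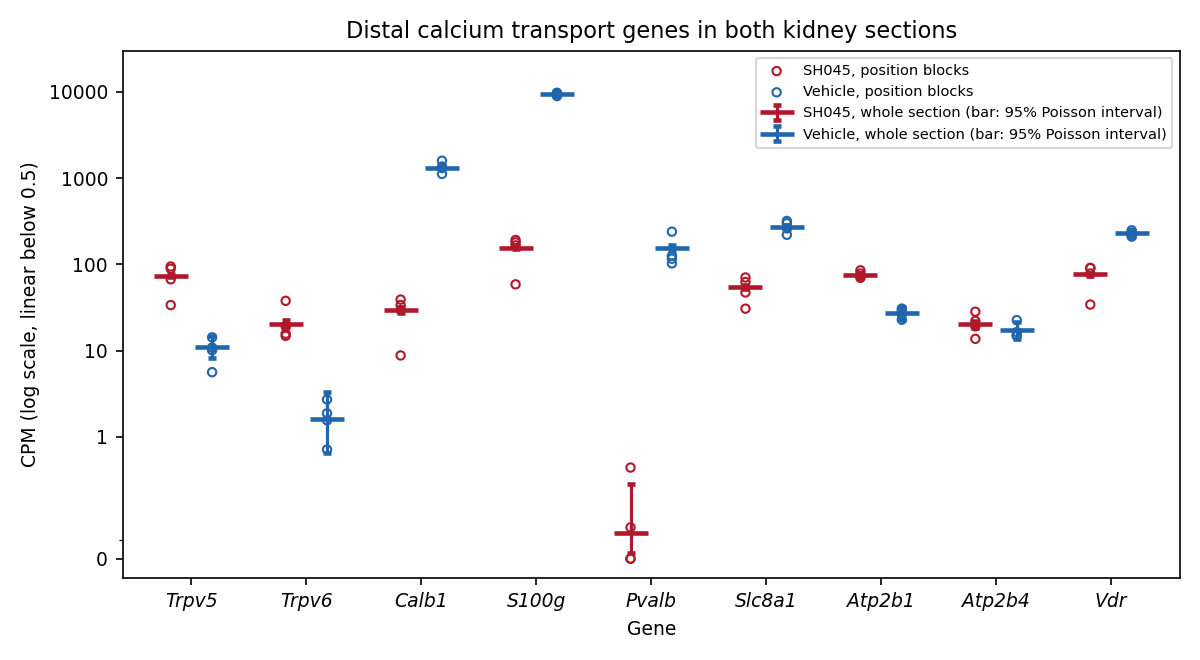
Level of each calcium transport gene in CPM (vertical axis, log scale, linear below 0.5) in SH045 tissue (red) and the section labelled Vehicle (blue); wide bars are section totals with 95% Poisson intervals, open circles the 4 position blocks of each section. Blocks of the sections do not overlap for any gene except Atp2b4, and the gap is widest for Pvalb, at 0.134 against 155 CPM.

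Trpv5 (ENSMUSG00000036899, chromosome 6, 41651661 to 41681224, GRCm38.p6), the epithelial calcium channel of the distal tubule, had 1659 UMIs in SH045 tissue and 48 in the section labelled Vehicle. Its 4 blocks stood at 94.5, 67.2, 89.1 and 33.8 CPM in SH045 tissue and at 10.8, 5.63, 14.3 and 10.1 CPM in the other. Every SH045 block was above every Vehicle block. The section levels of 74.1 CPM (70.6 to 77.8) and 11.1 CPM (8.18 to 14.7) differed 6.68-fold (5.02 to 9.10), a log2 ratio of 2.63 where the median of all genes was 0.63. Among measured genes 5.60% had a higher ratio.

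Trpv6, the related channel best known from the intestine, lies next to Trpv5 (chromosome 6, 41620619 to 41636405) and had 459 UMIs in SH045 tissue and 7 in the other. Block levels were 19.1, 14.8, 15.7 and 37.8 CPM in SH045 tissue and 2.71, 1.88, 0.713 and 1.56 CPM in the section labelled Vehicle, without overlap. The SH045 level of 20.5 CPM (18.7 to 22.5) was 12.7 times the Vehicle level of 1.62 CPM (0.650 to 3.33), with an interval of 6.10 to 31.7 set by the 7 UMIs. The log2 ratio was 3.04, and 3.78% of measured genes had a higher one. How reads matching both channels, and strand, were handled is not stated in the labels or file headers. Both genes overlap another gene in RefSeq, Gm34642 for Trpv5 and Gm38795 for Trpv6, so part of their counts could belong to those. The same limit holds for Vdr, which overlaps Gm33690 and Gm52171, and for Atp2b4, which overlaps Mir6903.

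Within SH045 tissue the 2 channels had different positions. Block 4 held the lowest Trpv5 level and the highest Trpv6 level, so that Trpv6 UMIs per 100 Trpv5 UMIs ran from 17.6 to 112 over the blocks. In block 4 the fibroblast marker list summed to 5374 CPM and the urothelium list to 71.1 CPM, the highest of the blocks for both. Slc12a3 was lowest there, at 40.6 CPM. The part of these other cell types in the Trpv6 level of block 4 was not tested.

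The calcium-binding protein genes showed the largest differences of the set. S100g (calbindin-D9k, ENSMUSG00000040808, chromosome X, 162961992 to 162964599) encodes a small cytoplasmic calcium carrier. Its blocks stood at 180, 192, 166 and 58.7 CPM in SH045 tissue and at 8940, 9784, 9531 and 9340 CPM in the other. The section levels were 157 CPM and 9354 CPM, 59.7-fold higher in the section labelled Vehicle (57.7 to 61.8), with a log2 ratio of -5.89. It was the 9th most abundant of all genes in that section, against rank 1058 in SH045 tissue. S100g lies within the span of Ctps2, whose level was 52.1 CPM in SH045 tissue and 41.8 CPM in the other.

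Calb1 (ENSMUSG00000028222, chromosome 4, 15881264 to 15906709) encodes calbindin, the larger carrier of the same cells. Its blocks were at 39.1, 29.7, 33.8 and 8.79 CPM in SH045 tissue, and at 1119, 1593, 1308 and 1363 CPM in the section labelled Vehicle. The fold was 44.7 (41.2 to 48.5), higher in the latter, and the log2 ratio -5.43. S100g and Calb1 kept similar proportions, with 534 S100g UMIs per 100 Calb1 UMIs in SH045 tissue and 713 in the other.

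Pvalb (ENSMUSG00000005716, chromosome 15, 78191112 to 78206400) encodes parvalbumin, a calcium buffer of muscle and neurons that in the mouse kidney marks the early distal convoluted tubule. It had 3 UMIs in the whole SH045 section, with blocks at 0, 0.163, 0 and 0.475 CPM. In the section labelled Vehicle it had 669 UMIs, with blocks at 126, 116, 240 and 103 CPM. The ratio was 1154 (counting interval 393 to 5608), and no measured gene had a lower log2 ratio than its -7.10. The 3 measured genes with a lower ratio than Calb1 were Pvalb, S100g and the connecting tubule gene Klk1 (-6.09). Skeletal muscle markers, which could accompany Pvalb from muscle, summed to 4.51 and 3.24 CPM, with Ckm and Myh4 at 0 in both sections.

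The exit genes did not move together: Slc8a1 was lower in SH045 tissue, Atp2b1 higher and Atp2b4 within 1.5-fold. Slc8a1 (chromosome 17, 81373105 to 81738387), the sodium-calcium exchanger NCX, stood at 62.5, 47.3, 70.5 and 30.7 CPM over the SH045 blocks and at 221, 319, 262 and 300 CPM over the Vehicle blocks. Section levels were 54.6 and 270 CPM, 4.94-fold higher in the section labelled Vehicle (4.56 to 5.36), with a log2 ratio of -2.28. Its direction depended on the scaling: relative to Slc12a3 UMIs it was slightly higher in SH045 tissue, at a log2 ratio of 0.18.

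Atp2b1 (chromosome 10, 98914630 to 99026143), a plasma membrane calcium pump found in most cell types, went the other way. Its blocks were at 73.0, 69.8, 78.4 and 85.3 CPM in SH045 tissue and at 30.7, 26.3, 22.8 and 28.8 CPM in the other, and did not overlap. The section levels of 75.9 and 27.0 CPM differed 2.81-fold (2.33 to 3.42), which is 0.82 above the all-gene median on the log2 scale, and 19.0% of measured genes had a higher ratio. Atp2b4 (chromosome 1, 133702674 to 133801059), the pump isoform described in the distal nephron, was at 20.2 CPM and 17.3 CPM, a ratio of 1.16 (0.911 to 1.51). Its blocks overlapped, from 13.7 to 28.3 CPM in SH045 tissue and from 14.8 to 22.6 CPM in the other. In spots of 10000 to 30000 UMIs alone its log2 ratio was 0.64, past the 1.5-fold limit.

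Vdr (chromosome 15, 97854427 to 97908296), the nuclear receptor for active vitamin D, stood at 90.9, 78.4, 90.7 and 34.2 CPM over the SH045 blocks and at 249, 216, 234 and 210 CPM over the Vehicle blocks. The section levels of 76.8 and 228 CPM differed 2.97-fold (2.75 to 3.22), higher in the section labelled Vehicle. The log2 ratio was -1.56 and turned to 0.91 when scaled on Slc12a3.

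Counted over the blocks, 3 members lay wholly above and 5 wholly below in SH045 tissue, where 56.3% and 13.5% of all measured genes did so. Block 4 of the SH045 section was the lowest block for Trpv5, Calb1, S100g, Slc8a1 and Vdr alike, and so for members on both sides of the comparison. The makeup of the members' RNA changed accordingly. S100g gave 82.2% of the members' UMIs in the section labelled Vehicle and 30.8% in SH045 tissue, whereas Trpv5 gave 0.0975% and 14.6%.

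Slc12a3 itself was lower in SH045 tissue, at 131 CPM against 732 CPM (log2 ratio -2.48). The distal convoluted tubule list summed to 332 and 1540 CPM, with 6 of 8 measured markers lower and 1 higher, and the connecting tubule list to 686 and 12717 CPM, with 7 of 8 lower and 1 higher. Klk1 alone gave 11178 CPM of the latter sum. Without it the list stood at 523 and 1539 CPM. With Klk1 included, the median log2 ratio of the list's 8 measured genes was -1.33. Fewer cells of a segment and less RNA per cell cannot be told apart in sections of this kind. Set against the same marker, the channels, the buffers and the exchanger differed from each other. Slc12a3 marks the distal convoluted and not the connecting tubule, so these ratios are not amounts per cell of either segment. Most measured genes were higher in SH045 tissue on this scale, with an all-gene median log2 ratio of 3.08 when scaled on Slc12a3. On the same scale Trpv5 stood at 5.10, Trpv6 at 5.47 and Atp2b1 at 3.93. Slc8a1, at 0.18, and Vdr, at 0.91, lay below that median. Per 100 Slc12a3 UMIs there were 56.7 Trpv5 UMIs in SH045 tissue and 1.52 in the section labelled Vehicle, a ratio of 37.4, and 15.7 against 0.221 Trpv6 UMIs. For the buffers the difference narrowed but kept its direction: 22.5 against 179 Calb1 UMIs and 120 against 1278 S100g UMIs, so 7.98 and 10.7 times lower in SH045 tissue. Pvalb had 0.103 and 21.1 UMIs per 100. Slc8a1 kept nearly the same proportion to the marker in both sections, at 41.8 and 36.8 UMIs per 100, and Vdr had 58.8 and 31.2. The pump gene Atp2b1, which the marker's segment does not define, had 58.1 and 3.69. Over the SH045 blocks Trpv6 ran from 10.2 to 93.0 and Atp2b1 from 40.7 to 210 UMIs per 100 Slc12a3 UMIs. Set against the buffer, the entry channel had 47.3 Trpv5 UMIs per 100 S100g UMIs in SH045 tissue and 0.119 in the other. Over the blocks that ratio ran from 35.0 to 57.5 and from 0.0575 to 0.150.

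Other cell type lists moved between the sections as well, and their part in the members' levels was not tested. The injured tubule list summed to 26961 CPM in SH045 tissue and 1554 CPM in the other, with 11 of 11 markers higher in the former. The fibroblast list stood at 2808 and 83.4 CPM, the macrophage list at 3708 and 453 CPM, and the proximal convoluted list, with 11 of 11 lower, at 1385 and 10629 CPM.

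Because the sections differed in depth, shares of spots with a UMI were taken after thinning each spot to 2500 UMIs, which left 788 SH045 and 561 Vehicle spots. The share for S100g was 21.1% under SH045 (18.3 to 24.1) and 98.6% in the section labelled Vehicle (97.2 to 99.4). Calb1 was seen in 5.58% and 84.7%, and Pvalb in 0.127% and 27.5%. Trpv5 went the opposite way, at 15.4% (12.9 to 18.1) and 2.67% (1.5 to 4.37), as did Trpv6 at 5.20% and 0.713%. Without thinning, the Trpv5 shares were 58.2% and 6.21% and the S100g shares 74.9% and 99.3%. In spots of 10000 to 20000 UMIs, Trpv5 stood at 46.2 CPM in 155 SH045 spots and at 10.5 CPM in 124 Vehicle spots, and S100g at 89.6 and 8935 CPM. The directions were thus the same at matched depth, but depth does not match the region of tissue. Slc12a3 stood at 64.0 CPM in those SH045 spots against 131 CPM in the whole section, and at 578 against 732 CPM in the other.

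**Figure D2:**
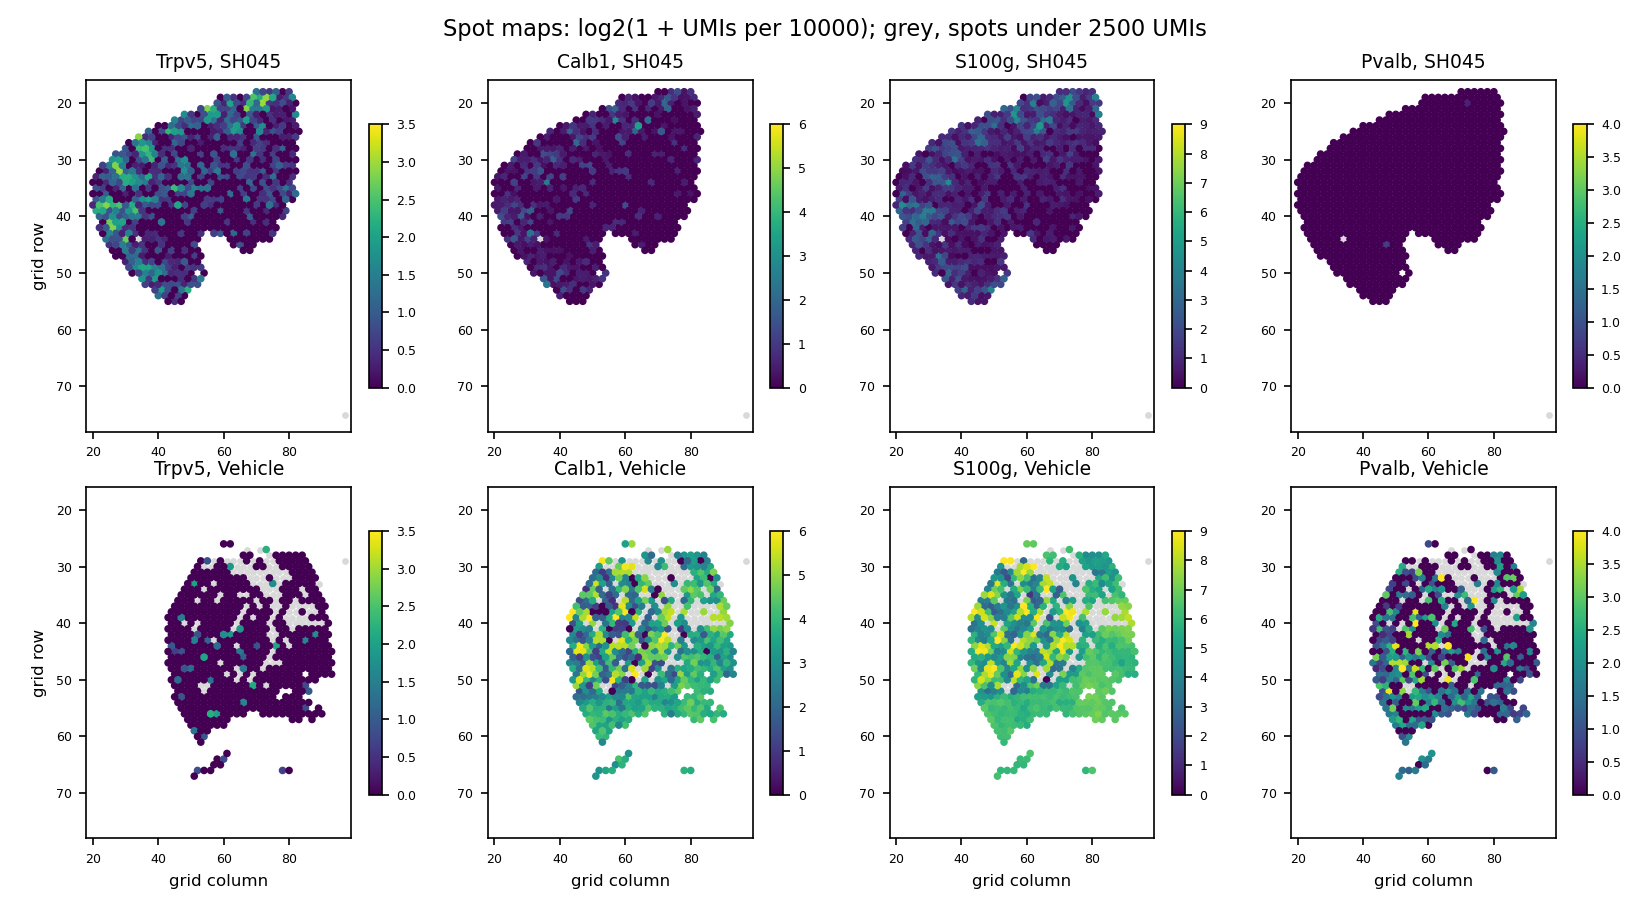
Spot maps of Trpv5, Calb1, S100g and Pvalb in SH045 tissue (top) and the section labelled Vehicle (bottom), by grid column and row of the slide; colour is log2(1 + UMIs per 10000 UMIs of the spot), on the same scale for both sections of a gene, and grey spots have under 2500 UMIs. Trpv5 is seen across the SH045 section, at 90.9 CPM in the outer 2 grid steps and 66.4 CPM in the remainder, and S100g reaches nearly every Vehicle spot, in separate bright spots on one side and at an even level in the lower and right parts.

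S100g was widespread in the section labelled Vehicle, but not evenly so. Among its spots of 2500 UMIs or more, the 276 with under 10% mitochondrially encoded UMIs had a median of 4132 S100g CPM per spot, with 704 and 47723 CPM at the 5th and 95th percentiles. The 285 spots with 10% or more had a median of 7386 CPM and percentiles of 2510 and 14066 CPM. The coefficient of variation over spots was 1.23 in the former and 0.499 in the latter, and that of Calb1 1.11 and 0.579. Summed levels were closer, at 10595 and 7878 CPM for S100g and 12.4 and 10.1 CPM for Trpv5. The more even level in spots of higher mitochondrial share was not particular to the calcium-binding genes. The coefficient was 1.41 and 0.968 for Slc8a1 and 1.36 and 0.859 for Slc12a3, but 1.75 and 1.55 for Pvalb. For Vdr it went the other way, at 0.954 and 1.10. So it did for Trpv5 (3.56 and 4.79), Trpv6 (7.98 and 12.0) and Atp2b4 (3.23 and 4.47), which had few UMIs in that section. After thinning, S100g was seen in 97.1% of the spots under 10% and 100% of the others, and Calb1 in 76.4% and 92.6%. Whether RNA had moved between spots before capture was not tested, and the shares and the folds within that section include both kinds of spot unless the text says otherwise. This split was chosen after the maps were seen.

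Members were then placed by segment, using the 10% of spots with the highest score of a marker list that contained none of the 9 genes. In SH045 tissue, the 79 spots richest in connecting tubule markers held 183 CPM Trpv5 against 61.6 CPM in the remaining 709 spots, a fold of 2.98 (2.66 to 3.33). The same spots were 4.89-fold higher in Calb1, 3.80-fold in S100g, 2.81-fold in Slc8a1 and 2.38-fold in Trpv6, while Atp2b1 and Vdr (1.09) were near even. In Vehicle-labelled tissue, 57 such spots held 36836 CPM S100g against 6391 CPM, a fold of 5.76 (5.65 to 5.88), and Slc8a1 was 4.64-fold, Calb1 4.04-fold, Atp2b4 6.83-fold and Vdr 2.38-fold higher in them. Trpv5 reached 49.7 CPM there, from 20 UMIs, a fold of 6.86 (3.65 to 12.7). In connecting-tubule-rich spots Trpv5 stood at 183 CPM in SH045 tissue against 49.7 CPM in the other, and S100g at 462 against 36836 CPM. The 2 sets of spots were not alike: Slc12a3 was 3.72-fold higher in the SH045 set and 1.04-fold in the Vehicle set. The list that ranks them holds Klk1, at 163 and 11178 CPM in the sections, so they may not be the same segment.

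Pvalb followed another segment. In the section labelled Vehicle the 57 spots richest in distal convoluted tubule markers held 625 CPM against 111 CPM elsewhere, a fold of 5.65 (4.77 to 6.67), and connecting-tubule-rich spots held less than the others, at a fold of 0.301. S100g was 1.45-fold higher in the distal-convoluted-rich spots, but this turned to 0.794 (0.752 to 0.838) within the spots of under 10% mitochondrially encoded UMIs, where the Pvalb fold was 6.55. In SH045 tissue the distal-convoluted-rich spots were 3.01-fold higher in Calb1, 2.47-fold in S100g, 2.25-fold in Slc8a1 and 1.77-fold in Trpv5, and held no Pvalb UMI.

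Outside these segments, spots rich in collecting duct principal cell markers in SH045 tissue were 2.28-fold higher in Trpv6 (1.77 to 2.90) and 1.64-fold in Trpv5. They held less S100g (0.462) and Vdr (0.596). Spots rich in intercalated cell markers, a cell type shared by connecting tubule and collecting duct, held 205 CPM Trpv5 in SH045 tissue, a fold of 3.48 (3.12 to 3.87). They were also 3.85-fold higher in Calb1, 3.60-fold in S100g and 2.48-fold in Slc8a1, with Atp2b1 (0.989) and Vdr (0.958) near even. In Vehicle-labelled tissue such spots were 4.14-fold higher in S100g, 3.82-fold in Trpv5, 3.00-fold in Slc8a1 and 2.84-fold in Calb1. The higher levels of these members were thus not particular to the connecting tubule list. Spots rich in proximal straight tubule markers held less of Trpv5, Trpv6, Calb1, S100g, Slc8a1 and Atp2b4 in SH045 tissue, at folds from 0.257 to 0.421, and slightly more Vdr (1.23), a gene also known from the proximal tubule. Fibroblast-rich SH045 spots were 1.48-fold higher in Atp2b1 and 1.83-fold in Atp2b4. In Vehicle-labelled tissue, injured-tubule-rich spots held 5.08-fold more S100g and 6.32-fold more Trpv5; that list includes Clu and Spp1, and Clu was among the genes most like S100g across its spots.

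**Figure D3:**
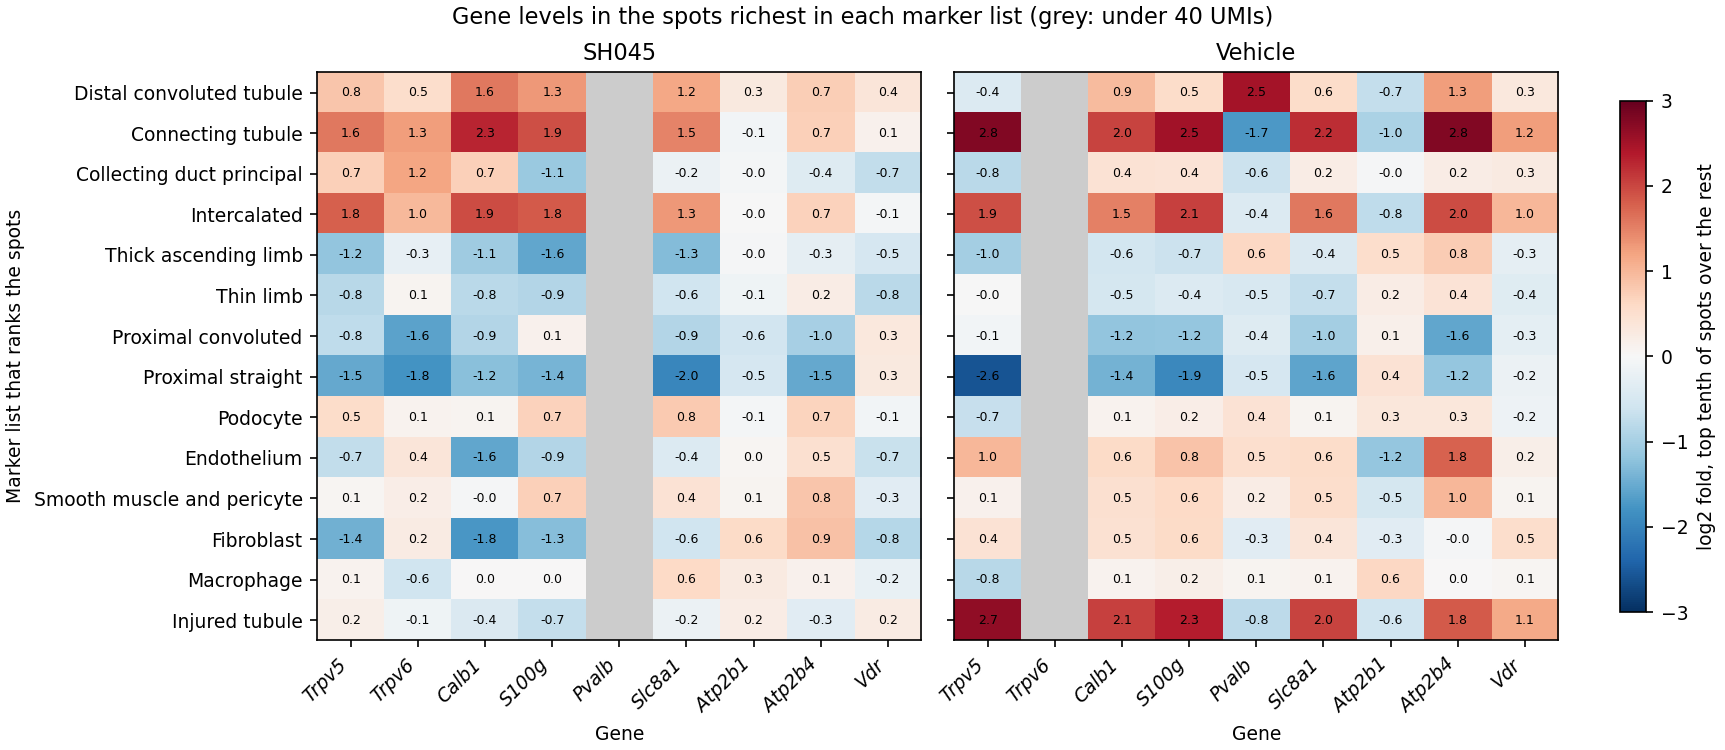
Log2 fold of each calcium transport gene (columns) in the 10% of spots with the highest score of each marker list (rows) over the remaining spots, within SH045 tissue (left) and the section labelled Vehicle (right); grey columns have under 40 UMIs. Trpv5, Calb1, S100g and Slc8a1 are red in the connecting tubule row of both sections, and Pvalb is red in the distal convoluted and blue in the connecting tubule row of the section labelled Vehicle.

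Depth below the section edge, counted in grid steps, showed a gradient in SH045 tissue for most members. S100g fell from 201 CPM at steps 1 to 2 to 171, 145, 91.3 and 53.9 CPM at steps 9 to 10. Calb1 fell from 34.1 to 9.80 CPM, Slc8a1 from 66.3 to 23.1 CPM and Slc12a3 from 147 to 31.5 CPM over the same bands. Trpv5 was at 90.9 and 87.6 CPM in the outer bands and between 51.7 and 54.6 CPM in the inner ones. Vdr, at 67.9 to 84.0 CPM, and Atp2b1, at 72.0 to 80.0 CPM, showed no such gradient. In the section labelled Vehicle no steady decline was seen. S100g stood at 9780, 9152, 6170, 10285, 11127 and 15933 CPM from the edge inward, and Pvalb was lower in the outer 2 steps than in the remainder, at 120 against 176 CPM.

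**Figure D4:**
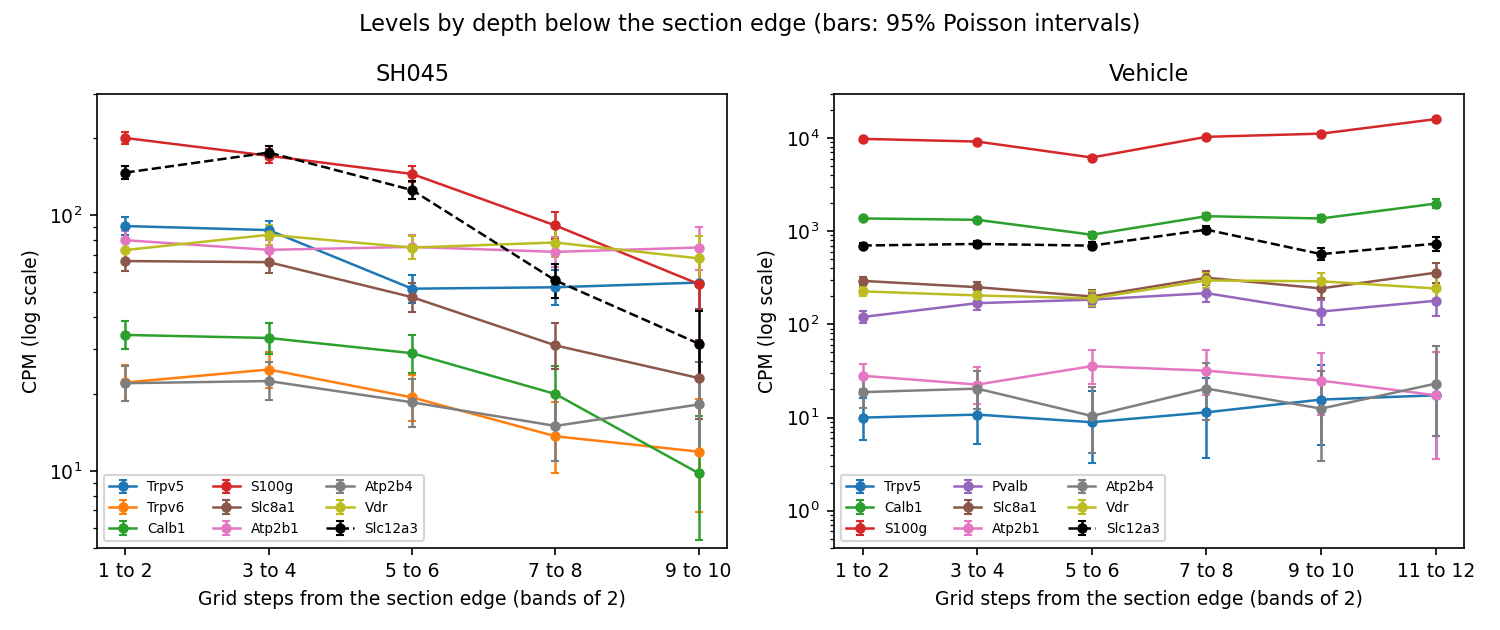
Level in CPM (vertical axis, log scale) by band of 2 grid steps from the section edge (horizontal axis), SH045 left and the section labelled Vehicle right, with 95% Poisson intervals; Slc12a3 is dashed, and genes of too few UMIs in a section are left out. In SH045 tissue S100g, Calb1, Slc8a1 and Slc12a3 are lowest in the innermost band while Vdr and Atp2b1 stay flat, and in the other section no gene declines from band to band.

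Across spots, 3 members formed a block of related pattern in both sections. The correlations that follow are Pearson's r of log(1 + UMIs per 10000) over 788 SH045 and 561 Vehicle spots, which share a library and differ in depth, and are given as a description. S100g and Calb1 had r = 0.57 in SH045 tissue and 0.78 in the section labelled Vehicle, S100g and Slc8a1 0.61 and 0.62, and Calb1 and Slc8a1 0.51 and 0.58. In the 276 Vehicle spots of lower mitochondrial share these were 0.84, 0.72 and 0.72. Trpv5 joined this block in SH045 tissue, at 0.55 with S100g and 0.56 with Slc8a1; in the section labelled Vehicle its values of 0.20 and 0.14 rest on 41 spots with a UMI. Thinned to 2500 UMIs, the SH045 values fell, to 0.25 for S100g with Calb1 and 0.22 for S100g with Trpv5. Trpv6, Atp2b1, Atp2b4 and Vdr had r of at most 0.28 with any other member in either section.

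**Figure D5:**
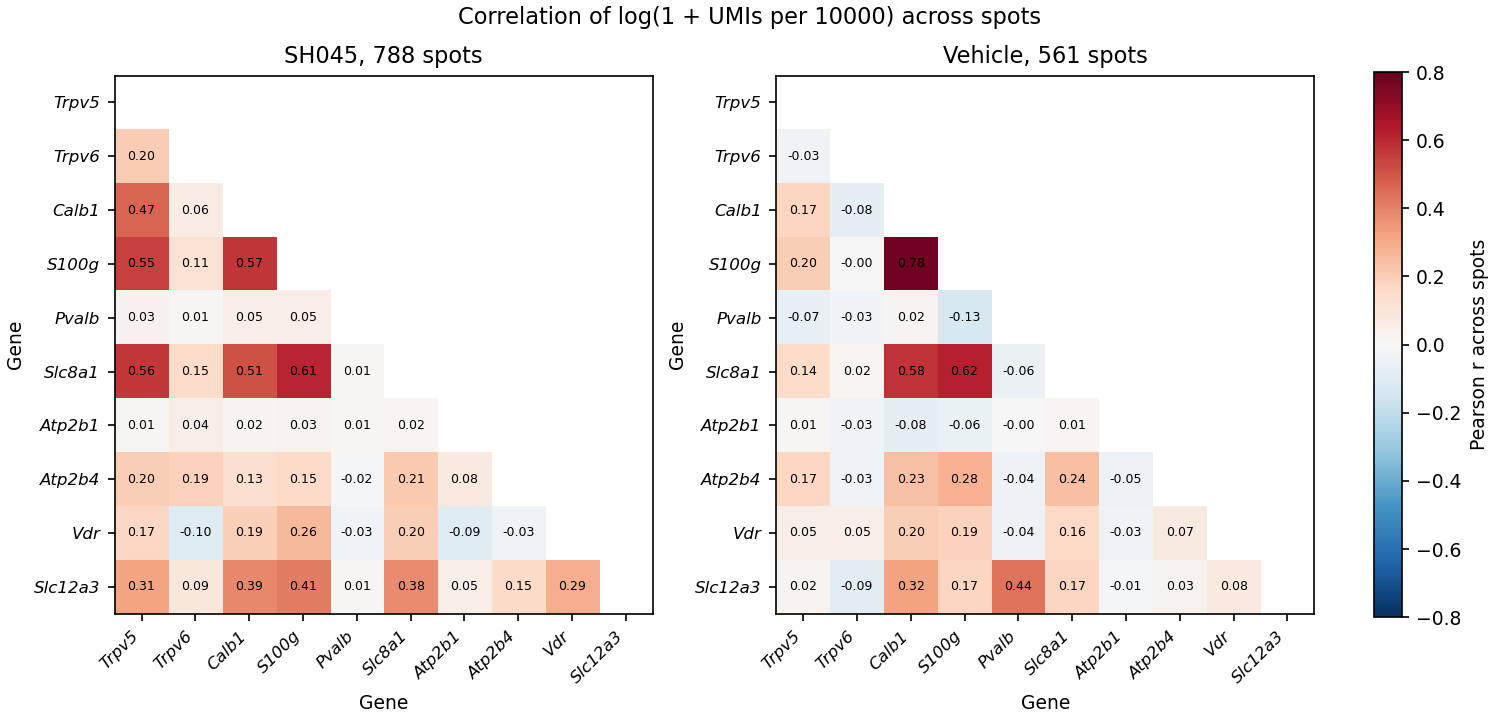
Pearson's r of log(1 + UMIs per 10000) across spots for each pair of calcium transport genes and Slc12a3, over 788 SH045 spots (left) and 561 Vehicle spots (right). S100g, Calb1 and Slc8a1 are related in both sections, at 0.51 to 0.78, and Pvalb relates to Slc12a3, at 0.44, only in the right panel, since the SH045 section has 3 Pvalb UMIs.

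The genes of most similar pattern were sought among genes with 20 CPM or more, 7801 in SH045 tissue and 5651 in the other. For Trpv5 in SH045 tissue they were Scnn1g (r = 0.61), a subunit of the epithelial sodium channel, Atp6v1g3 (0.59), a proton pump subunit of intercalated cells, and the lysosomal protease gene Ctsd (0.59). For Trpv6 they were Mal2 (0.36), Cd24a and Krt7 (0.33). Calb1 was nearest to S100g (0.57), Slc8a1 (0.51) and Tmem52b (0.48), and S100g to Slc8a1 (0.61), Calb1 (0.57) and S100a1 (0.56). Slc8a1 was nearest to S100g (0.61), Trpv5 (0.56) and Tmem52b (0.56). Vdr was nearest to Ndrg1 (0.47), Dbi (0.46) and Gpx3 (0.46). In Vehicle-labelled tissue, Klk1 was among the nearest 3 genes of Calb1 (0.65), S100g (0.76), Slc8a1 (0.54) and, weakly, Vdr (0.25). Pvalb was nearest to Slc12a3 (0.44), Wfdc15b (0.42) and Fxyd2 (0.32), the last a subunit of the sodium pump. For Atp2b1 and Atp2b4 no gene exceeded 0.27 in the sections where they could be ranked. In SH045 tissue Spearman (rank) correlation kept 1 of the 3 genes for Trpv5 and S100g, 0 for Calb1 and 2 for Trpv6, Slc8a1 and Atp2b1. It kept 3 for Atp2b4 and Vdr. Thinned counts kept 2 for Slc8a1, 0 for Trpv6, Atp2b1 and Atp2b4, and 1 for the rest. In the other section both alternatives kept 3 for Calb1 and Slc8a1, 2 for S100g and Pvalb, 1 for Vdr and 0 for Atp2b1.

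Genes of the wider calcium and magnesium pathway were taken from 6 lists of 55 genes, of which 54 were in the table and 44 reached 10 CPM. Of these, 18 were higher in SH045 tissue, 11 lower and 15 within 1.5-fold, with a median log2 ratio of 0.35 against 0.63 over all measured genes. The counts of the lists that follow stand beside 53.2% of all measured genes higher and 12.0% lower. Among 8 measured genes of the calcium hormone axis, 5 were lower and 1 was higher, against the 12.0% and 53.2% of all genes. The lower ones include Lrp2, an endocytosis receptor gene of the proximal tubule, at 241 and 817 CPM. The proximal convoluted list was lower as well, and its part in this count was not tested. Kl, encoding klotho, the co-receptor for the phosphate hormone FGF23, had 94.8 CPM in SH045 tissue and 544 CPM in the other, and Pth1r, the parathyroid hormone receptor, 368 and 820 CPM. Casr, the calcium-sensing receptor, had 3.35 and 10.6 CPM from 75 and 46 UMIs, with overlapping blocks. Cyp24a1, which inactivates vitamin D and is itself a vitamin D target, was at 21.5 and 16.2 CPM, within 1.5-fold. Cyp27b1, which activates it, had 122 UMIs (5.45 CPM) and 1 UMI (0.231 CPM), below the limit for a measured gene.

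The 11 measured regulators and partners of TRPV5 divided, with 5 higher and 3 lower, a share of higher genes near the 53.2% of all genes. Klk1, encoding the tissue kallikrein secreted by the connecting tubule, which is known to raise TRPV5 at the cell surface, had 163 CPM in SH045 tissue and 11178 CPM in the other. Umod, encoding uromodulin of the thick ascending limb, was at 3373 and 1470 CPM, with overlapping blocks. Anxa2 and S100a10, whose proteins form a complex that carries TRPV5 and TRPV6 to the membrane, were at 420 against 37.2 CPM and at 569 against 207 CPM, both higher in SH045 tissue without overlap of blocks.

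Of 8 magnesium genes 3 were lower and 1 higher, against 12.0% and 53.2% of all genes. Trpm6, the magnesium channel of the distal convoluted tubule, had 11.3 and 22.4 CPM, with overlapping blocks. Egf, the growth factor made there, had 38.0 and 348 CPM. Of 3 measured claudins of paracellular calcium and magnesium transport 2 were higher, with a background of 53.2%: Cldn19 at 80.4 against 16.6 CPM and Cldn16 at 24.8 against 13.6 CPM. The blocks of Cldn16 overlapped. Of 12 genes of calcium stores and store-operated entry 8 were higher and none lower, where 53.2% and 12.0% of all genes were. The most abundant was Calr at 695 and 500 CPM, within 1.5-fold. Of the relatives of the members, Atp2b2 had 1.30 CPM in SH045 tissue and 5.31 CPM in the section labelled Vehicle, and Trpv4 105 and 132 CPM; Trpv1, Calb2 and Ocm had no UMI in either section.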

How the data were processed

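For each section the authors deposited a table of UMI counts per gene and spot, not normalized, made with Space Ranger 2.0.1 per the file headers, on the build mm10 per the submitters' processing notes. How reads were aligned, with which annotation and strand setting, is not given in the sources used here. Groups came from the labelled treatment. The members and all gene lists were chosen with earlier results of these data known. Counts were summed per section and scaled to CPM, with exact Poisson intervals; folds have exact conditional binomial and shares exact (Clopper-Pearson) intervals, all at 95%. With 1 section per group no model was fitted. A gene was measured at 10 CPM in either section and called at 1.5-fold. All spots of both matrices were kept (median depth 27733 and 4932.5 UMIs), including those outside the tissue flag, and no doublet caller was run. A list score is the mean log of 1 plus the thinned count, and 18 marker lists were used.

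Besides the 9 members, named genes are the 3 of highest level per pathway list, 6 preset pathway genes, the 3 of most similar pattern per member, Slc12a3, Havcr1 and Lcn2. Ctps2, Anxa2, Atp2b2, Trpv1, Calb2, Ocm, Ephb6, Kel and Llcfc1 fall outside that rule and were chosen after their values were seen. Alternatives were 2 other scalings (edgeR 4.0.16 TMM factors, median of ratios), 2 pseudocounts, filters, thinning depths, spot subsets and scores. Scripts (Python 3.11.15, numpy 2.4.6, scipy 1.17.1, pandas 2.3.3) were tested on simulated data. RefSeq gene positions matched all 9 members.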

Additional observations from a re-analysis of the deposited data

How the results depend on the processing

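The alternatives restricted to Vehicle spots under 10% mitochondrially encoded UMIs, to spots of 10000 to 30000 UMIs, to the largest tissue piece, and scaled on Slc12a3 were chosen after seeing the data. The counts of 3 higher and 5 lower members held under every alternative run except 3 settings: with 50 CPM as the limit 2 were higher, in spots of 10000 to 30000 UMIs (446 SH045 and 133 Vehicle spots) 4 were higher, and scaled on Slc12a3 5 were higher and 3 lower. That last scaling sets Slc12a3 equal by construction. It turned Slc8a1 to a log2 ratio of 0.18, Vdr to 0.91 and the median over members to 0.91, and moved the all-gene median to 3.08. The median over members was -2.18 with TMM factors, -2.20 with the median-of-ratios factor, -1.71 as the mean of per-spot CPM, -1.73 in Vehicle spots under 10% mitochondrially encoded UMIs and -1.81 in spots of 10000 to 30000 UMIs. The all-gene median was 0.034, 0.0037, 0.53 and 0.75 under TMM, median of ratios, the lower mitochondrial share and the 10000 to 30000 UMI spots, and 0.40 without a filter and 0.46 at 50 CPM. Of 108 values of single members' log2 ratios under alternatives, 73 moved by less than the counting interval of the fold, 33 by more without the reversal of a called direction, and 2 reversed. Of 80 folds in marker-rich spots 37 left their counting interval and 4 changed sign, all of folds under 1.5 in distal-convoluted-rich Vehicle spots. There the log2 fold of S100g went from 0.54 to -0.11 in the top twentieth of spots and to -0.33 under 10% mitochondrially encoded UMIs, and that of Slc8a1 from 0.56 to -0.24 and -0.06. Atp2b4, called neither way, changed sign in 3 of its log2 ratios, to between -0.41 and -0.08. Of 36 shares of spots 32 moved with the thinning depth. The genes of most similar pattern depended on the correlation used in 14 of 28 cases. Depth limits Trpv6 and Trpv5 in the section labelled Vehicle, with 7 and 48 UMIs, and Pvalb in the SH045 section, with 3. No paired analysis was possible because each group has 1 section and the labels give no replicate numbers.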

Other observations

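The genes around the 2 channel genes on chromosome 6 were read as well, after the channel values were seen. Ephb6, an ephrin receptor gene, had 221 UMIs (9.87 CPM) in the SH045 section and 8 UMIs (1.85 CPM) in the section labelled Vehicle. Kel, encoding the Kell blood group protein, had 31 UMIs and 1 UMI, and Llcfc1 had 68 and 7 UMIs, with overlapping blocks. None of the 3 reached the 10 CPM of a measured gene.

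The members differed in how their UMIs were concentrated. In the SH045 section the 79 spots richest in a gene held 62.3% of its UMIs for Calb1, 57.2% for S100g, 51.8% for Trpv5 and 46.1% for Slc8a1, but 29.6% for Vdr and 25.5% for Atp2b1. In the section labelled Vehicle the 68 richest spots held 53.8% of the UMIs of Pvalb, 45.6% of S100g, 44.4% of Slc8a1, 39.5% of Calb1 and 38.4% of Vdr. The highest single spot held 921 S100g UMIs in that section and 86 in the SH045 section, where the highest Trpv5 spot held 26 UMIs.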
